A study of Rattus norvegicus with 3 samples.

Results

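Immediate early transcription factors were described by 10 genes, Fos, Fosb, Jun, Junb, Jund, Atf3, Egr1, Nr4a1, Nr4a3 and Klf6, taken by symbol from the 17328 genes of the files. All 10 were in the files, and they were chosen by name, with earlier results of these data known. They were followed by marker-defined class of nuclei in single-nucleus RNA of rat spinal cord. The tissue was the epicenter of the lesion 49 days after spinal cord injury, from wild-type Sprague Dawley (SDrat) animals aged 17 weeks. In the HGF scaffold group the cord carried an implanted scaffold made to release HGF, the hepatocyte growth factor, placed 7 days before collection. The scaffold group carried the scaffold alone for the same 7 days, and the untreated group was injured cord with no implant. All groups were injured, so no uninjured cord enters any comparison. Each group was 1 library, and the labels do not give the number of animals behind it. No difference therefore has a replicate check, no p-value is given, and every interval below is a 95% interval that covers counting error only.

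Immediate early genes are transcribed within minutes of a stimulus without new protein synthesis, through kinases that act on factors such as SRF and CREB already present in the cell. The FOS and JUN proteins and ATF3 form basic leucine zipper dimers, and FOS and JUN together make up the factor AP-1. EGR1 and KLF6 are zinc finger factors, and NR4A1 and NR4A3 are orphan nuclear receptors. In the spinal cord, JUN and ATF3 are known as markers of the response of injured neurons and Schwann cells, and FOS as a marker of recent neuronal activity. JUNB and ATF3 are also induced in activated macrophages.

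The HGF scaffold library held 906 nuclei with a median of 1047 unique molecular identifiers (UMIs) each, the scaffold library 2168 nuclei with a median of 1639 UMIs, and the untreated library 2252 nuclei with a median of 1407.5 UMIs. The HGF scaffold library was the smallest and shallowest, with 1450757 UMIs in all, against 5791715 in the scaffold library and 5953189 in the untreated library. The libraries shared 1 barcode between HGF scaffold and scaffold, 0 between HGF scaffold and untreated and 3 between scaffold and untreated. After filters 5320 of 5326 nuclei remained and fell into 22 clusters, made with the 10 members left out of the clustering genes. Clusters were named by markers, and each class name below is short for nuclei like that cell type. Of the clusters, 6 were left unnamed, and those described are called by their leading genes. Markers of neurons, astrocytes, oligodendrocytes, their precursors and ependymal cells were all found, as spinal cord should hold, together with those of fibroblasts, endothelial cells, Schwann cells and immune cells. T or NK cells, mural cells, ependymal cells and skeletal muscle had under 50 nuclei in each library and are not compared. Myeloid nuclei numbered 304 in the HGF scaffold library, 452 in the scaffold library and 223 in the untreated library, and they were not the same kind of nuclei in each. A cluster led by Itgam and Lyn held 266 of them in the HGF scaffold library, 345 in the scaffold library and 14 in the untreated library, and a cluster led by Blnk and Arhgap15 held 38, 107 and 209 in the same order of libraries. A cluster led by the chemokine gene Cxcl2 and by G0s2 held 9 HGF scaffold nuclei, 59 scaffold nuclei and 0 of 2248 untreated nuclei, which allows a share of up to 0.133%. A cluster led by Lyz2 and Psap held 105 HGF scaffold nuclei, 76 scaffold nuclei and 30 untreated nuclei.

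Promoters of 6 members, Fosb, Junb, Jund, Egr1, Nr4a1 and Klf6, were matched by symbol to RefSeq entries on the assembly GRCr8, and Fos, Jun, Atf3 and Nr4a3 were not matched. The 250 bases before the annotated start are shown, 5′ to 3′ on the gene's strand, for Junb, Jund, Nr4a1 and Klf6. Each of these 4 matched genes is called in at least 1 class below. Fosb is called too, but its window held no match to the motifs searched and is not shown. Junb lies at chr19:40080876-40081125 (plus strand), Jund at chr16:18769772-18770021 (minus strand), Nr4a1 at chr7:134259888-134260137 (plus strand) and Klf6 at chr17:69458479-69458728 (minus strand). Capitals mark every match to any of 5 motifs searched on both strands.
Junb: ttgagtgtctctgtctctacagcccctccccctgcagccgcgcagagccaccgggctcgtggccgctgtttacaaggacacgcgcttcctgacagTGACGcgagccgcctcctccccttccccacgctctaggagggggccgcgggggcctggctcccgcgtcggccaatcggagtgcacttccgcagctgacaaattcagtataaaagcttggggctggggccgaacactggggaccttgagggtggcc
Jund: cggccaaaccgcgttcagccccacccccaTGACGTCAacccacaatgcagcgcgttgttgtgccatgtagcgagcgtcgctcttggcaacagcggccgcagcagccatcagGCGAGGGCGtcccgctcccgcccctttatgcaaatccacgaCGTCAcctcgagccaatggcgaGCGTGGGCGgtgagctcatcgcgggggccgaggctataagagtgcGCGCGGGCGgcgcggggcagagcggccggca
Nr4a1: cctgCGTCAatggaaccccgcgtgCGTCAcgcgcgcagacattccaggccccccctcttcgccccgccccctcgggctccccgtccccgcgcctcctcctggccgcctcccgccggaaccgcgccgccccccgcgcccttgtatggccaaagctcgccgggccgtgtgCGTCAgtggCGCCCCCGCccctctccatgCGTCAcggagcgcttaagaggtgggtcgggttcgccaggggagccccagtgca
Klf6: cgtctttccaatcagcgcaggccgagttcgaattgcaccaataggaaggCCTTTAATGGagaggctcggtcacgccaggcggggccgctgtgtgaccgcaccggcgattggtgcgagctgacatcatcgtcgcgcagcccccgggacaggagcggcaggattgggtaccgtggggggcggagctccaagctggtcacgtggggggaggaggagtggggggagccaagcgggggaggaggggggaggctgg
The motifs were the full cyclic AMP response element (CRE) TGACGTCA, its short form CGTCA, the AP-1 site TGANTCA, the EGR site GCGNGGGCG and the CArG box, which SRF binds. They occur in 1.59%, 18.2%, 6.34%, 4.29% and 1.5% of 33465 RefSeq promoters of the same length, in that order. Junb held 1 short CRE, at positions -155 to -151 from the start. Jund held 1 full CRE at -221 to -214, which contains 2 of its 3 short CREs, and 3 EGR sites. Nr4a1 held 4 short CREs and 1 EGR site, and Klf6 held 1 CArG box at -201 to -192. No motif was found in all 4 windows. Of the promoters not shown, Fosb held no match and Egr1 held 2 short CREs and 2 CArG boxes. A match describes the letters of the window and was not tied to the levels below.

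Over all nuclei, the summed level of the 10 members was 671.0 UMIs per 1000000 (CPM) in the HGF scaffold library, 614.8 CPM in the scaffold library and 310.7 CPM in the untreated library. The ratio was 1.98 for scaffold over untreated (1.87 to 2.09), 2.16 for HGF scaffold over untreated (1.996 to 2.34) and 1.09 for HGF scaffold over scaffold (1.02 to 1.17). Both implant libraries thus stood apart from the untreated one, and they lay close to each other. A gene was counted as higher or lower when its CPM ratio lay at least 2-fold from the median ratio of all genes with at least 20 UMIs in the pair of libraries. Egr1, with 5, 9 and 7 UMIs in the HGF scaffold, scaffold and untreated libraries, missed that minimum, which left 9 measured members. In scaffold over untreated, Fos, Junb, Atf3, Nr4a1 and Nr4a3 were higher, 5 of 9, where 6.76% of all measured genes were, and 0 of 9 were lower, against 4.58%. In HGF scaffold over untreated, Junb, Atf3 and Klf6 were higher, 3 of 9 against 8.33%, and 0 of 9 were lower, against 12.6%. In HGF scaffold over scaffold, 0 of 9 were higher, against 2.12%, and Nr4a3 alone was lower, 1 of 9 against 5.56%. Each 2 of these comparisons share a library. The higher calls of Junb and Atf3 over untreated were kept in 15 of 15 alternative settings in both implant libraries, that of Fos in 14 and that of Nr4a1 in 12. Settings that changed only the clustering could not alter a sum over all nuclei, so they are no check on these calls. Those that changed the minimum of UMIs moved only the median gene and the set of measured genes. In a sum over all nuclei, more nuclei of a class and more RNA per nucleus cannot be told apart, so each member is given by class below.

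**Figure D1:**
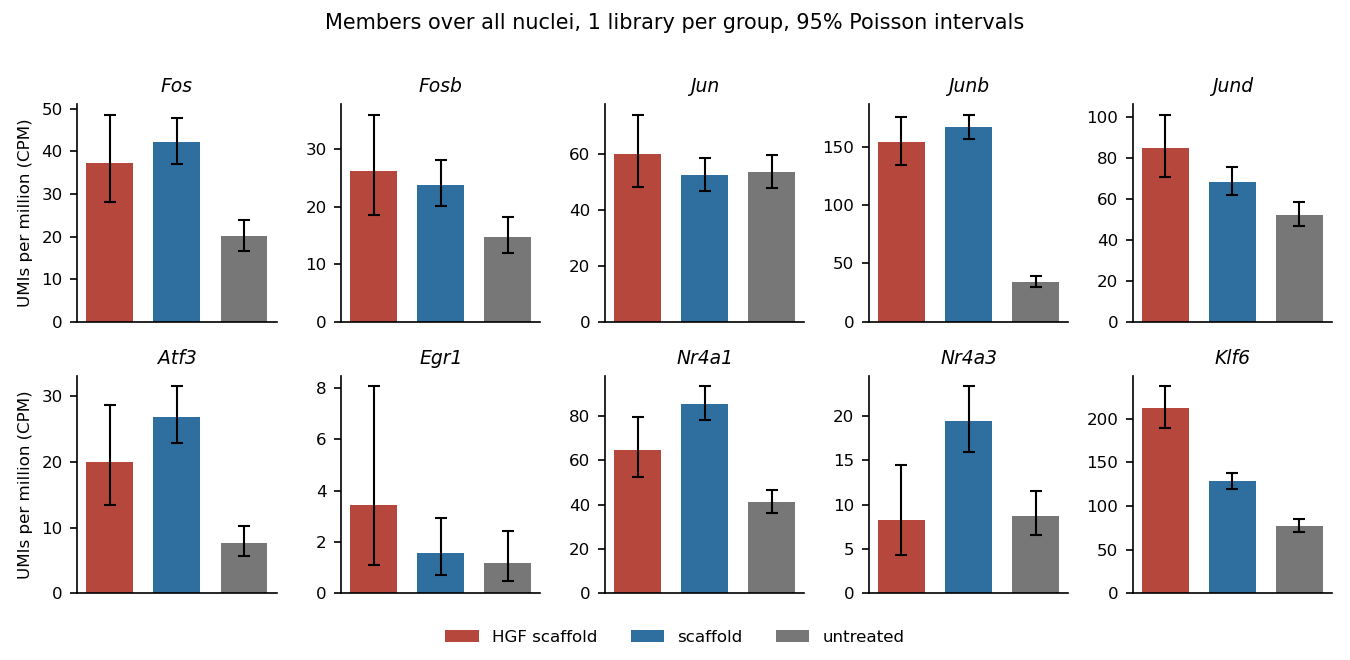
Level of each member over all nuclei, in CPM (UMIs per 1000000, linear axis from 0, a scale of its own for each gene), in the HGF scaffold, scaffold and untreated libraries; bars are 1 library each and error bars are exact 95% Poisson intervals. Junb stands at 153.9 and 166.5 CPM in the implant libraries and 33.8 CPM in the untreated one, Jun is level across the libraries, and Nr4a3 is high in the scaffold library alone.

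Junb, a JUN family member that is known to restrain JUN in some settings, showed the widest difference of the 10 members. It stood at 153.9 CPM in the HGF scaffold library (134.4 to 175.5), 166.5 CPM in the scaffold library (156.2 to 177.4) and 33.8 CPM in the untreated library (29.3 to 38.8). The ratio was 4.93 for scaffold over untreated (4.23 to 5.77) and 4.56 for HGF scaffold over untreated (3.75 to 5.54). The implant libraries overlapped in their intervals, with a ratio of 0.924 for HGF scaffold over scaffold (0.795 to 1.07).

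Junb was also the only member counted as higher in scaffold over untreated in all 8 classes with at least 50 nuclei in both libraries, and the interval lay above 1 in each. In neurons it stood at 106.0 CPM with scaffold and 15.2 CPM untreated, a ratio of 6.97 (4.37 to 11.7). In oligodendrocyte precursor cells (OPC) it stood at 86.0 CPM with scaffold and 13.7 CPM untreated, a ratio of 6.30 (2.48 to 18.99). Fibroblasts had 170.9 CPM with scaffold and 38.6 CPM untreated, a ratio of 4.43 (3.01 to 6.57). These are the classes with the widest gaps. Oligodendrocytes had 52.5 CPM with scaffold and 13.4 CPM untreated (ratio 3.93, 1.71 to 9.36), and myeloid nuclei had 120.5 CPM with scaffold and 36.0 CPM untreated (ratio 3.35, 1.57 to 8.52). Endothelial nuclei had 124.3 CPM with scaffold and 39.0 CPM untreated (ratio 3.18, 1.92 to 5.38), and Schwann cells had 143.5 CPM with scaffold and 46.0 CPM untreated (ratio 3.12, 1.22 to 8.58). Astrocytes had the narrowest gap, 205.0 CPM with scaffold and 100.2 CPM untreated, a ratio of 2.05 (1.21 to 3.54). They held the highest Junb level of the 8 classes in both libraries. In the Blnk and Arhgap15 myeloid cluster alone, which both libraries fill, Junb stood at 146.3 CPM with scaffold and 33.3 CPM untreated, a ratio of 4.39 (1.69 to 13.4). The astrocyte call was kept in 8 of 13 alternative settings, where the log2 ratio ran from 0.95 to 1.31; the other 7 classes kept their Junb call in every setting in which it was measured.

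With HGF scaffold, Junb stood at 130.6 CPM in myeloid nuclei, 109.7 in fibroblasts, 63.5 in oligodendrocytes and 147.0 in endothelial nuclei. Over untreated it was higher in the 3 classes where it was measured, with ratios of 3.63 in myeloid nuclei (1.64 to 9.49), 2.84 in fibroblasts (1.57 to 4.96) and 3.77 in endothelial nuclei (2.10 to 6.75). Over scaffold it was within 2-fold in 4 of 4 classes, from 0.642 in fibroblasts (0.366 to 1.08) to 1.21 in oligodendrocytes (0.421 to 3.11), and every interval spanned 1. In the fibroblast class the scaffold level was therefore above the HGF scaffold level by less than its counting error.

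Unnamed nuclei held Junb at levels above those of the 8 classes. In the Cxcl2 and G0s2 cluster it stood at 2243.3 CPM in the HGF scaffold library (32 UMIs in 9 nuclei) and 913.8 CPM in the scaffold library (170 UMIs in 59 nuclei, 781.6 to 1062.0). That cluster was 2.72% of scaffold nuclei and held 17.6% of their Junb UMIs. The Lyz2 and Psap cluster had 309.9, 362.3 and 256.2 CPM in the HGF scaffold, scaffold and untreated libraries, the last from 8 UMIs. With the share of each class held at its mean over the libraries, the log2 ratio of Junb over all nuclei was 1.59 for scaffold over untreated in place of 2.26, and 1.26 for HGF scaffold over untreated in place of 2.12. Junb stayed past 2-fold in both.

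**Figure D2:**
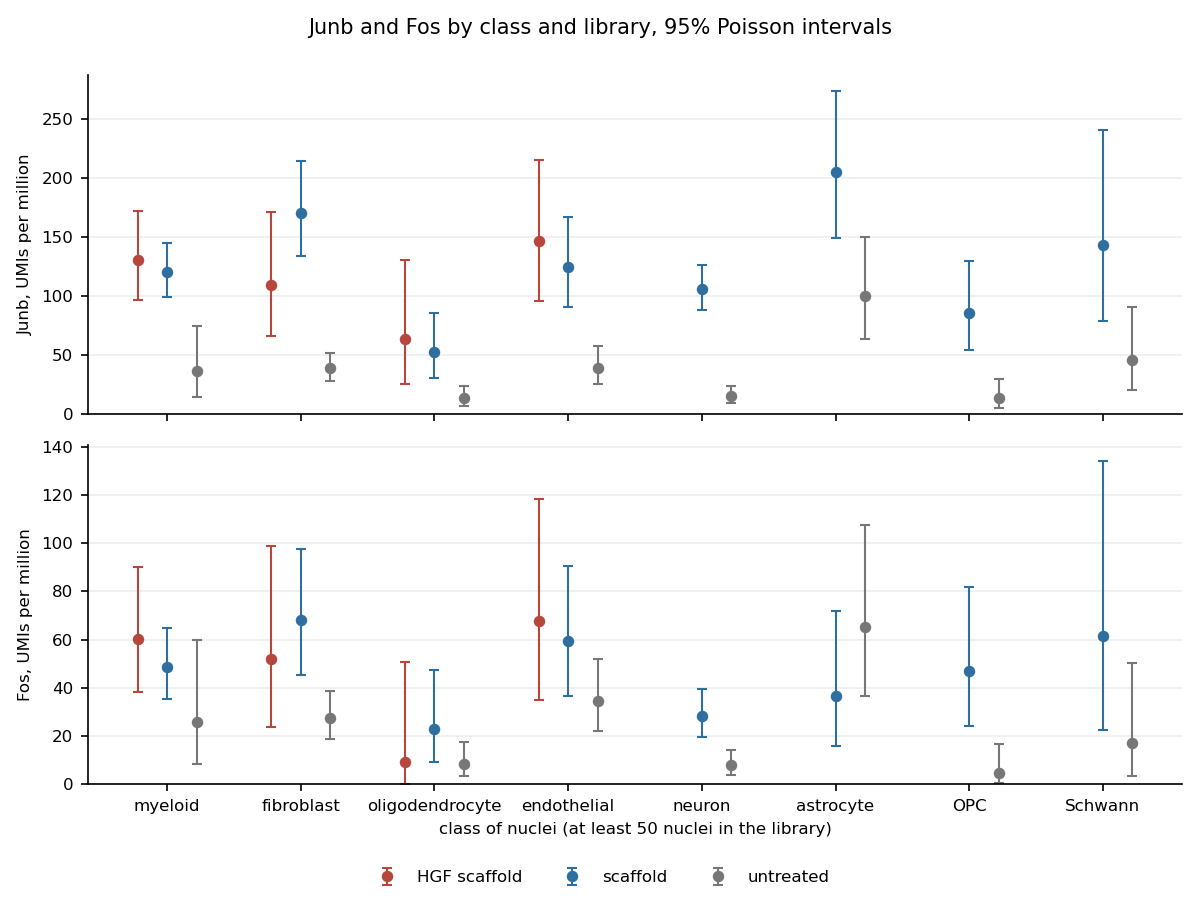
Junb (top) and Fos (bottom) in CPM (linear axes from 0) by class, for each library with at least 50 nuclei of that class, ordered HGF scaffold, scaffold, untreated; points are 1 library each and bars are exact 95% Poisson intervals. Junb lies above the untreated level in every class with scaffold, from 52.5 CPM in oligodendrocytes to 205.0 CPM in astrocytes, and Fos does so in 7 of the 8 classes shown but not in astrocytes.

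Fos, the partner of the JUN proteins in AP-1, stood at 37.3 CPM in the HGF scaffold library (28.0 to 48.6), 42.2 CPM in the scaffold library (37.0 to 47.8) and 20.01 CPM in the untreated library (16.6 to 23.9). Scaffold over untreated gave 2.11 (1.69 to 2.65), HGF scaffold over untreated 1.86 (1.33 to 2.59) and HGF scaffold over scaffold 0.884 (0.646 to 1.19). In fibroblasts it stood at 52.0, 67.9 and 27.5 CPM in the HGF scaffold, scaffold and untreated libraries, with a scaffold over untreated ratio of 2.47 (1.44 to 4.22). In neurons it stood at 28.2 CPM with scaffold and 7.97 CPM untreated, a ratio of 3.54 (1.75 to 7.77). Fos was counted as higher in these 2 of the 5 classes that measured it, and astrocytes ran the other way by less than counting error, at 36.4 CPM with scaffold and 65.3 CPM untreated (ratio 0.558, 0.205 to 1.40). In myeloid nuclei it stood at 60.1 CPM with HGF scaffold, 48.4 CPM with scaffold and 25.7 CPM untreated, the last from 5 UMIs. The HGF scaffold over untreated ratio there was 2.34, counted as higher, with an interval of 0.869 to 7.87.

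Fosb, a FOS relative with a stable splice form known from chronic neuronal stimulation, had few UMIs in any class. It stood at 26.2 CPM in the HGF scaffold library, 23.8 CPM in the scaffold library and 14.8 CPM in the untreated library, and scaffold over untreated gave 1.61 (1.22 to 2.13), within 2-fold of the median gene. In fibroblasts it stood at 69.3 CPM with HGF scaffold, 35.1 CPM with scaffold and 20.6 CPM untreated, and in endothelial nuclei at 73.5 CPM with HGF scaffold, 36.7 CPM with scaffold and 52.6 CPM untreated. HGF scaffold over scaffold was counted as higher in both classes, with ratios of 1.97 (0.843 to 4.51) and 2.002 (0.855 to 4.69) whose intervals span 1. Of the 12 fibroblast UMIs in the HGF scaffold library 6 lay in 1 nucleus, and without the top nucleus of each library the fibroblast log2 ratio was 0.21 in place of 1.01. The 27 Fosb UMIs of the scaffold library in the unnamed cluster led by Slc4a4 and Bnc2 gave 109.4 CPM (72.1 to 159.1), where no class passed 36.7 CPM with scaffold. The same cluster held 0 UMIs in 50 HGF scaffold nuclei, which allows up to 37.1 CPM. It had 16.2 CPM untreated (5.95 to 35.3), so scaffold over untreated gave 6.74 (2.73 to 19.97).

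Jun, the main AP-1 subunit and a regulator of regeneration in injured neurons and Schwann cells, was level across the libraries. It stood at 60.1 CPM in the HGF scaffold library (48.1 to 74.1), 52.4 CPM in the scaffold library (46.6 to 58.6) and 53.5 CPM in the untreated library (47.8 to 59.7). The scaffold over untreated ratio was 0.979 (0.834 to 1.15). It was within 2-fold in 6 of 6 classes, from 0.543 in Schwann cells (0.197 to 1.31) to 1.52 in neurons (0.929 to 2.52), and every interval spanned 1. In Schwann cells, where JUN drives the repair state in rodents, it stood at 71.8 CPM with scaffold and 132.3 CPM untreated, from 7 scaffold and 23 untreated UMIs. In fibroblasts it stood at 80.8, 32.8 and 56.7 CPM in the HGF scaffold, scaffold and untreated libraries. HGF scaffold over scaffold was counted as higher there at 2.47 (1.09 to 5.58), from 14 UMIs in each library, and in 9 of 11 alternative settings.

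Jund, the JUN member that is usually present in resting cells, stood at 84.9 CPM in the HGF scaffold library (70.6 to 101.3), 68.4 CPM in the scaffold library (61.8 to 75.5) and 52.3 CPM in the untreated library (46.6 to 58.4). All 3 ratios lay within 2-fold, at 1.31 for scaffold over untreated (1.13 to 1.52), 1.24 for HGF scaffold over scaffold (1.01 to 1.52) and 1.62 for HGF scaffold over untreated (1.31 to 2.01). By class it was counted as higher with scaffold in neurons, at 35.9 CPM against 13.8 CPM untreated (ratio 2.61, 1.48 to 4.75). In Schwann cells it was at 123.0 CPM against 57.5 CPM (ratio 2.14, 0.847 to 5.53). The Schwann interval spans 1. In fibroblasts Jund ran against Jun, at 46.2, 103.0 and 66.9 CPM in the HGF scaffold, scaffold and untreated libraries, with HGF scaffold over scaffold counted as lower at 0.448 (0.182 to 0.963). That call rests on 8 HGF scaffold UMIs, held in 8 of 12 alternative settings, and lost its direction with each library clustered alone.

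Atf3, a stress-induced partner of JUN, stood at 20.02 CPM in the HGF scaffold library (13.4 to 28.8), 27.0 CPM in the scaffold library (22.9 to 31.5) and 7.73 CPM in the untreated library (5.66 to 10.3). Scaffold over untreated gave 3.48 (2.49 to 4.95) and HGF scaffold over untreated 2.59 (1.57 to 4.21), while HGF scaffold over scaffold gave 0.743 (0.482 to 1.11). In myeloid nuclei it stood at 34.0 CPM with HGF scaffold, 47.3 CPM with scaffold and 15.4 CPM untreated, the last from 3 UMIs, and scaffold over untreated gave 3.07 (0.984 to 15.5). All 44 scaffold UMIs of the myeloid class lay in the Itgam and Lyn cluster, at 55.0 CPM. In neurons Atf3 stood at 14.5 CPM with scaffold and 5.79 CPM untreated, a ratio of 2.51 (1.03 to 6.72). Astrocytes again ran the other way, with 4 scaffold UMIs and 13 untreated UMIs, too few to be measured.

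Nr4a1, a nuclear receptor gene induced by activity and inflammation, stood at 64.9 CPM in the HGF scaffold library (52.4 to 79.4), 85.5 CPM in the scaffold library (78.2 to 93.4) and 41.4 CPM in the untreated library (36.4 to 46.9). Scaffold over untreated gave 2.07 (1.77 to 2.42), close to the limit for a call, and HGF scaffold over scaffold gave 0.759 (0.602 to 0.948). By class scaffold over untreated was counted as higher in 3 of 6. In neurons it stood at 50.4 CPM with scaffold and 13.0 CPM untreated, a ratio of 3.87 (2.25 to 6.97), and in OPC at 62.5 CPM with scaffold and 20.5 CPM untreated, a ratio of 3.05 (1.27 to 7.84). In myeloid nuclei it stood at 18.3, 57.0 and 10.3 CPM in the HGF scaffold, scaffold and untreated libraries, the last from 2 UMIs, and scaffold over untreated gave 5.55 (1.46 to 47.0). Fibroblasts, at 69.3 CPM with HGF scaffold, 126.4 CPM with scaffold and 64.4 CPM untreated, fell just short of the limit, with a scaffold over untreated ratio of 1.96 (1.36 to 2.82). Endothelial nuclei did not differ beyond counting error, at 73.5 CPM with HGF scaffold, 76.3 CPM with scaffold and 70.6 CPM untreated. HGF scaffold over scaffold was counted as lower in myeloid nuclei at 0.321 (0.123 to 0.708). Within the Itgam and Lyn cluster that ratio was 0.318 (0.122 to 0.704). The Slc4a4 and Bnc2 cluster held the highest Nr4a1 level of the groups with at least 50 nuclei in every library, at 247.6, 311.9 and 108.2 CPM in the HGF scaffold, scaffold and untreated libraries.

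Nr4a3, the relative of Nr4a1 with a similar induction, was high in the scaffold library alone, at 8.28 CPM in the HGF scaffold library (4.28 to 14.5), 19.4 CPM in the scaffold library (15.9 to 23.3) and 8.74 CPM in the untreated library (6.53 to 11.5). Scaffold over untreated gave 2.21 (1.58 to 3.14), and HGF scaffold over scaffold gave 0.428 (0.215 to 0.778), from 12 HGF scaffold and 112 scaffold UMIs. Myeloid nuclei held 33 of those 112 scaffold UMIs. They held 0 UMIs in the HGF scaffold library, which allows up to 7.84 CPM, 35.5 CPM in the scaffold library (24.4 to 49.9) and 0 UMIs in the untreated library, which allows up to 15.4 CPM. With a floor of 3 counts in place of 0, scaffold over untreated gave 2.30 and HGF scaffold over scaffold gave 0.221. The floor covers only the library with 0 UMIs. The counting error of the 33 scaffold UMIs is left out, so these values are not strict limits. A single scaffold nucleus held 8 of those UMIs. Without that nucleus the value over untreated was 0.80 on the log2 scale after subtracting the median gene, no longer past 2-fold. Egr1, known as a growth-factor and activity-induced gene, was too sparse to compare in any class, at 3.45 CPM in the HGF scaffold library (1.12 to 8.06), 1.56 CPM in the scaffold library (0.711 to 2.95) and 1.18 CPM in the untreated library (0.473 to 2.43).

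Klf6, a zinc finger gene linked to macrophage activation and to endothelial repair, was the only member whose level over all nuclei was highest with HGF scaffold with intervals that did not overlap. It stood at 211.9 CPM in the HGF scaffold library (188.9 to 237.0), 128.2 CPM in the scaffold library (119.1 to 137.8) and 77.3 CPM in the untreated library (70.4 to 84.8). HGF scaffold over scaffold gave 1.65 (1.44 to 1.89), within 2-fold though its percentile among all measured genes was 94.8. HGF scaffold over untreated gave 2.74 (2.36 to 3.17) and scaffold over untreated 1.66 (1.47 to 1.87). In endothelial nuclei it stood at 282.7 CPM (209.8 to 372.7) with HGF scaffold, 127.1 CPM (92.7 to 170.1) with scaffold and 114.1 CPM (89.9 to 142.8) untreated. The endothelial ratio was 2.22 for HGF scaffold over scaffold (1.46 to 3.40) and 2.48 for HGF scaffold over untreated (1.70 to 3.59), both counted as higher. The first of these was kept in 9 of 12 alternative settings, with a log2 ratio of 0.76 to 1.18, and the summed ribosomal protein genes of endothelial nuclei were also higher, at 1.27 for the same comparison. In myeloid nuclei Klf6 stood at 256.0 CPM with HGF scaffold, 172.1 CPM with scaffold and 92.5 CPM untreated, and HGF scaffold over untreated gave 2.77 (1.66 to 4.86). Within the Itgam and Lyn cluster HGF scaffold over scaffold gave 1.51 (1.16 to 1.97), with 272.3 CPM in HGF scaffold nuclei and 180.1 CPM in scaffold nuclei.

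In the other classes Klf6 in scaffold over untreated lay above the median gene except in astrocytes. Over all 8 classes the interval lay above 1 in 3, below 1 in 0 and spanned 1 in 5. OPC and Schwann cells stood at 0.88 and 0.27 on the log2 scale relative to the median gene, both within 2-fold. Neurons had 79.5 CPM with scaffold and 34.8 CPM untreated, a ratio of 2.29 (1.60 to 3.31), counted as higher in the main setting and in 6 of 12 alternatives. Fibroblasts had 150.1, 131.1 and 79.0 CPM in the HGF scaffold, scaffold and untreated libraries. Astrocytes had 191.3 CPM with scaffold and 265.6 CPM untreated, a ratio of 0.720 (0.474 to 1.09). Oligodendrocytes, at 45.4, 59.0 and 38.9 CPM in the HGF scaffold, scaffold and untreated libraries, did not differ beyond counting error.

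**Figure D3:**
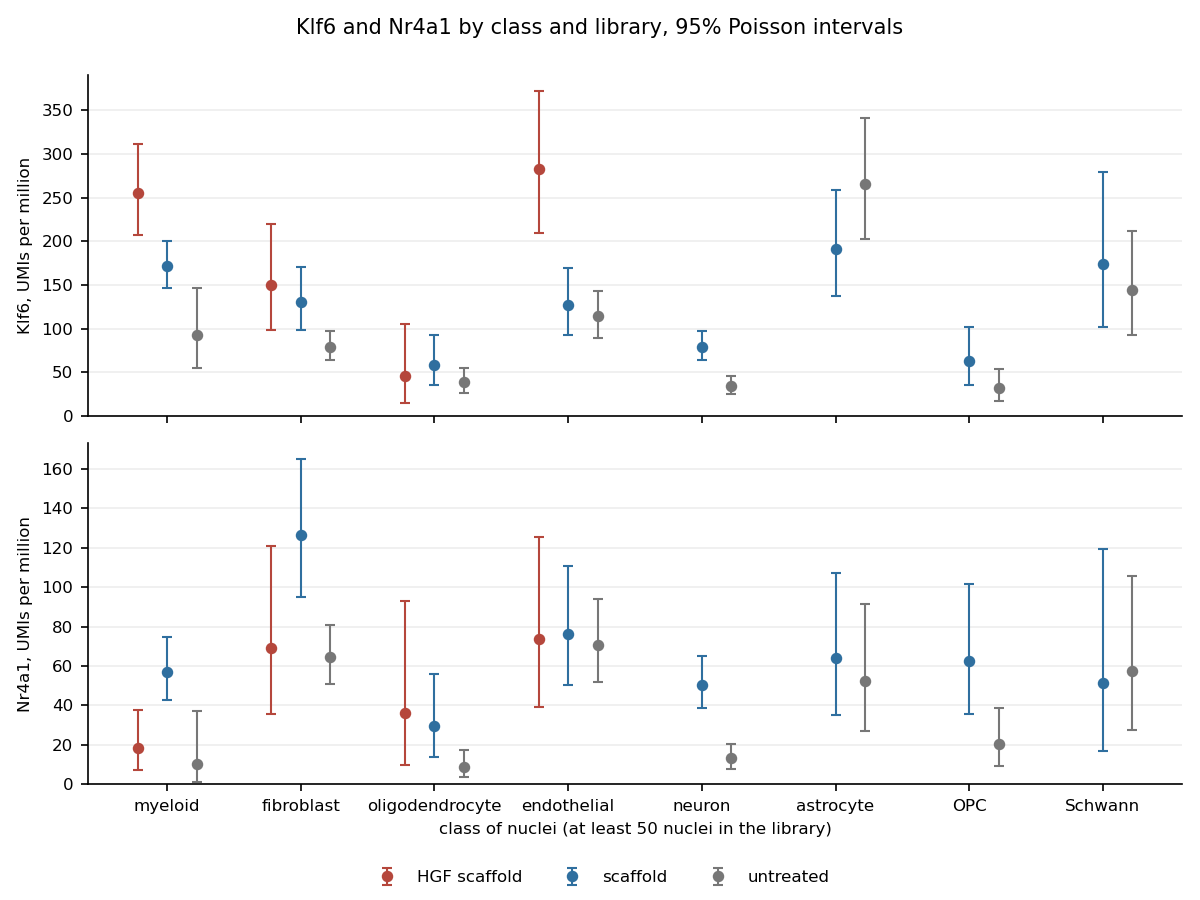
Klf6 (top) and Nr4a1 (bottom) in CPM (linear axes from 0) by class, for each library with at least 50 nuclei of that class, ordered HGF scaffold, scaffold, untreated; points are 1 library each and bars are exact 95% Poisson intervals. Klf6 is highest with HGF scaffold in myeloid and endothelial nuclei, at 256.0 and 282.7 CPM, and Nr4a1 in myeloid nuclei is at 57.0 CPM with scaffold and 18.3 and 10.3 CPM in the HGF scaffold and untreated libraries.

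By class, the members' counts in scaffold over untreated stood as follows beside all measured genes. In neurons 6 of 8 measured members were higher, namely Fos, Junb, Jund, Atf3, Nr4a1 and Klf6, where 6.57% of genes were. In myeloid nuclei 4 of 8 were higher, namely Junb, Atf3, Nr4a1 and Nr4a3, where 11.7% of genes were. The myeloid Nr4a3 call rests on a floor of 3 counts in the untreated library. Most scaffold nuclei of that class were in the Itgam and Lyn cluster and most untreated ones in the Blnk and Arhgap15 cluster, and the count ran from 1 to 7 over the alternatives. The neuron count was 2 of 3 measured with nuclei of many lineages removed, and it ran from 4 to 7 in the other alternatives that left a member measured. In fibroblasts 2 of 8 were higher (6.62% of genes), in OPC 2 of 4 (8.76%) and in Schwann cells 2 of 4 (9.47%). A single member, Junb, was higher in oligodendrocytes (1 of 3, 4.45%), endothelial nuclei (1 of 7, 6.41%) and astrocytes (1 of 6, 5.17%). No member was lower in any of the 8 classes, where between 3.37% of genes (neurons) and 10.4% (myeloid nuclei) were. The share of genes lower was 6.85% in fibroblasts, 3.87% in oligodendrocytes, 6.54% in endothelial nuclei, 4.17% in astrocytes, 4.8% in OPC and 8.32% in Schwann cells. The neuron class was the only one whose median gene moved by more than 0.1, by 0.17 on the log2 scale, and calls are made relative to it.

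With HGF scaffold, 4 classes had at least 50 nuclei. Over untreated, 3 of 4 measured members were higher in myeloid nuclei (11.4% of genes), namely Fos, Junb and Klf6. Fosb and Junb were higher in fibroblasts, 2 of 8 (7.23%), Junb and Klf6 in endothelial nuclei, 2 of 7 (7.84%), and 0 of 2 in oligodendrocytes (5.89%). None was lower there, against 11.5% of genes in myeloid nuclei, 10.8% in fibroblasts, 11% in endothelial nuclei and 10.1% in oligodendrocytes. Over scaffold, 0 of 8 were higher in myeloid nuclei (2.87%) and Nr4a1 and Nr4a3 were lower (5.07%). In fibroblasts Fosb and Jun were higher, 2 of 7 (4.37%), and Jund was lower (6.89%). In endothelial nuclei Fosb and Klf6 were higher, 2 of 7 (4.70%), and none was lower (6.15%), and in oligodendrocytes none of 3 was higher (4.26%) or lower (7.81%). Fosb was thus the only member called in more than 1 of these classes between the implant libraries, and no member was called in all of them. The fibroblast Fosb call was kept in 3 of 10 alternative settings and the endothelial one in 7 of 11.

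**Figure D4:**
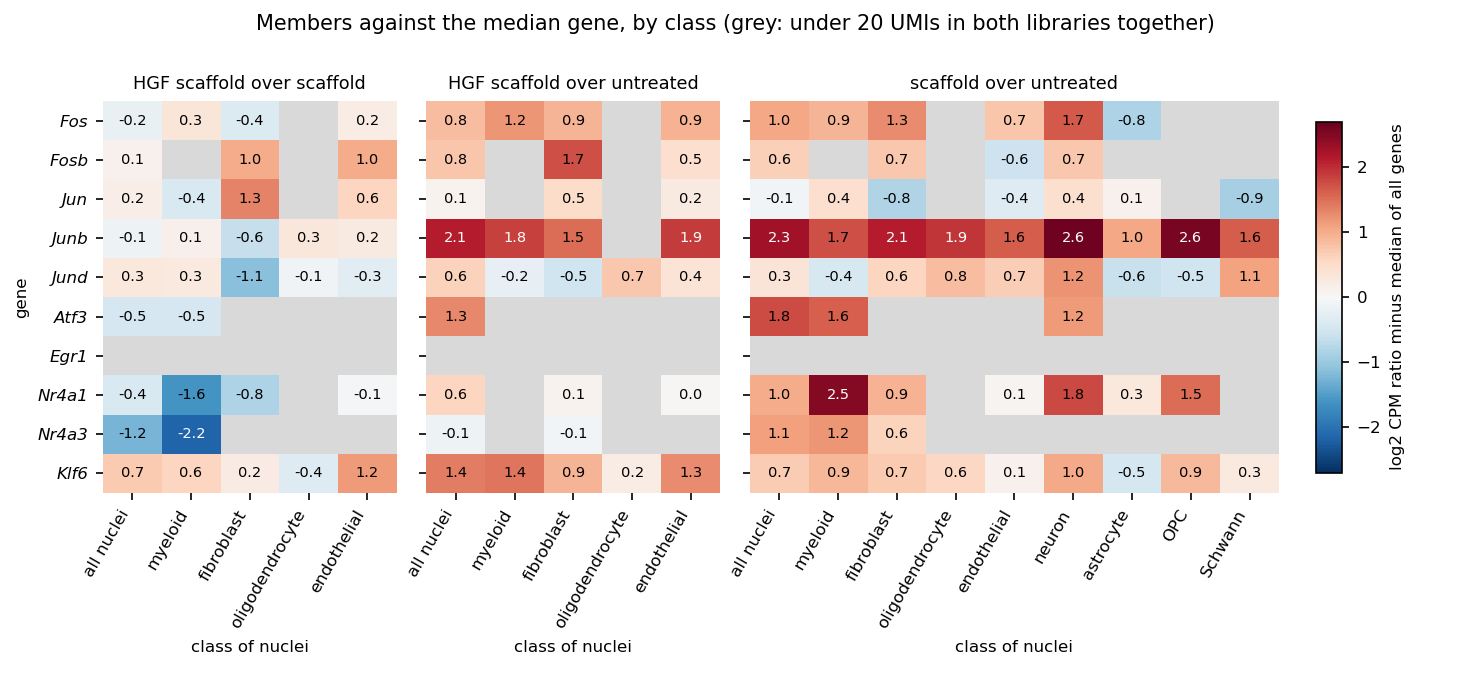
Log2 CPM ratio of each member minus the median of all measured genes (colour and printed value), by class, for HGF scaffold over scaffold, HGF scaffold over untreated and scaffold over untreated; grey marks a member with under 20 UMIs in both libraries together. Myeloid Nr4a3 is a bound, since 2 of its libraries held 0 UMIs. The Junb row is at 1.0 or more in every measured cell of the comparisons with untreated, and in HGF scaffold over scaffold the strongest cells are the 2 NR4A genes in myeloid nuclei.

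Single clusters gave a finer view where they held enough nuclei. In the Itgam and Lyn myeloid cluster, HGF scaffold over scaffold had 0 of 8 members higher (3.08% of genes) and 2 lower, Nr4a1 and Nr4a3 (4.88%), the same as in the whole class. In the Blnk and Arhgap15 cluster, scaffold over untreated had 1 of 3 higher, Junb (4.35%), and 0 lower (4.57%). The fibroblast class held a cluster led by Slc6a13 and Bmp6, which encode a GABA transporter and a BMP ligand, and a cluster led by Hmcn1 and Tnn, which encode matrix proteins. Junb stood at 295.4 CPM with scaffold and 40.2 CPM untreated in the Slc6a13 and Bmp6 cluster, a ratio of 7.34 (3.76 to 15.4), where it was the 1 member of 4 counted as higher (7.82%) and 0 were lower (6.01%). In the Hmcn1 and Tnn cluster it stood at 106.6, 117.3 and 38.1 CPM in the HGF scaffold, scaffold and untreated libraries, with a scaffold over untreated ratio of 3.08 (1.86 to 5.11). That cluster had 1 of 8 members higher in scaffold over untreated (7.25%) and 1 lower, Nr4a3 (9.01%), from 3 scaffold and 18 untreated UMIs (ratio 0.484, 0.0913 to 1.66). Its HGF scaffold over scaffold comparison had Fosb and Jun higher (4.91%) and Jund and Nr4a1 lower (7.4%), of 7. Jun stood there at 99.5 CPM with HGF scaffold and 30.2 CPM with scaffold, and Nr4a1 at 64.0 CPM with HGF scaffold and 157.5 CPM with scaffold. Over untreated, HGF scaffold had Fosb and Junb higher, 2 of 8 (7.6%), and 0 lower (11.8%).

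Of the unnamed clusters, that led by Slc4a4 and Bnc2 had Fosb, Junb and Nr4a1 higher in scaffold over untreated, 3 of 7 (6.91%), and 0 lower (4.03%). Junb stood at 111.4, 194.4 and 37.9 CPM in its HGF scaffold, scaffold and untreated nuclei. In HGF scaffold over scaffold Klf6 was higher, 1 of 6 (4.67%), at 173.3 CPM against 81.0 CPM with scaffold (ratio 2.14, 0.9998 to 4.45), and Fosb was lower (8.86%). HGF scaffold over untreated had Junb, Nr4a1 and Klf6 higher, 3 of 5 (6.72%), and 0 lower (9.6%). The cluster led by Ptgds, which encodes a prostaglandin D synthase known from the meninges, and Igfbp2 had Fos and Junb higher in scaffold over untreated, 2 of 6 (5.53%), and 0 lower (5.53%). Its Junb level was 243.2 CPM with scaffold and 68.4 CPM untreated, a ratio of 3.55 (2.08 to 6.29).

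Within each library the members' levels could be ordered by class, but most neighbours in that order did not differ beyond counting error. Neighbouring classes had intervals that did not overlap in 0 of 30 cases in the HGF scaffold library, 0 of 70 in the scaffold library and 3 of 70 in the untreated library. The untreated exceptions were Fosb, higher in endothelial nuclei than in fibroblasts, Jund, higher in astrocytes than in fibroblasts, and Klf6, higher in fibroblasts than in oligodendrocytes. Leaving out Egr1, which had at most 2 UMIs in any of these classes, untreated astrocytes held the highest level of 6 members, among them Fos (65.3 CPM), Junb (100.2 CPM), Jund (152.4 CPM), Atf3 (56.6 CPM) and Klf6 (265.6 CPM). With scaffold they held the highest level of 4, namely Jun, Junb, Nr4a3 and Klf6. Oligodendrocytes were the lowest class for 7 members with scaffold and for 3 untreated. In the HGF scaffold library, which has 4 classes, endothelial nuclei were highest for 7 members.

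The summed level of the members was also compared by class. In astrocytes they stood at 806.3 CPM with scaffold and 840.4 CPM untreated, a ratio of 0.959 (0.778 to 1.18). In neurons they stood at 374.4 CPM with scaffold and 127.4 CPM untreated, a ratio of 2.94 (2.46 to 3.52), and in OPC at 343.8 CPM with scaffold and 131.9 CPM untreated, a ratio of 2.61 (1.85 to 3.70). Oligodendrocytes stood at 249.2 CPM with scaffold and 120.3 CPM untreated, a ratio of 2.07 (1.52 to 2.82). Their untreated sum was the lowest of the 8 classes and that of astrocytes the highest. A UMI of at least 1 member was found in 48.4% of HGF scaffold nuclei, 58.2% of scaffold nuclei and 40.5% of untreated nuclei, and with every nucleus thinned to 500 UMIs in 25.9% of HGF scaffold nuclei, 27.8% of scaffold nuclei and 16.8% of untreated nuclei. No class is known to lack these genes, so no background share is given.

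Levels of myeloid and neutrophil markers also differed between the libraries, outside the myeloid class as well. Over all nuclei the 28 myeloid markers summed to 7917.7 CPM in the HGF scaffold library, 6801.1 CPM in the scaffold library and 2467.6 CPM in the untreated library. In the 7 classes other than myeloid, their sum ranged from 3086.0 to 5735.1 CPM with scaffold and from 1604.7 to 2769.5 CPM untreated, a ratio of 1.16 in oligodendrocytes to 3.53 in Schwann cells. In the myeloid class itself the sum was 13592.4, 13409.4 and 12713.4 CPM in the HGF scaffold, scaffold and untreated libraries. In neurons 26 of the 28 were detected with scaffold, all but the microglial genes P2ry12 and P2ry13, and the ratio was 2.26 (2.15 to 2.38). The 10 neutrophil markers ranged from 72.9 to 217.5 CPM in those 7 classes with scaffold and from 5.75 to 34.8 CPM untreated, with a ratio of 2.09 in astrocytes to 16.1 in endothelial nuclei, and Mpo and Elane were at 0 in all 7 classes with scaffold. Ribosomal protein genes had a ratio of 1.801 in neurons, 1.73 in OPC, 1.48 in oligodendrocytes and 0.832 in astrocytes. Mitochondrial transcripts were higher in scaffold over untreated for 4 of 11 measured in neurons (6.57% of all measured genes) and 5 of 8 in OPC (8.76%). With nuclei that hold markers of many lineages removed, Junb stood 7.25 times the median gene in neurons and 4.11 times in fibroblasts, against 6.21 and 4.33 times before. The marker sums were not taken again after that removal, so it does not show what part these markers had. The part of these markers in the members' ratios was not tested.

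**Figure D5:**
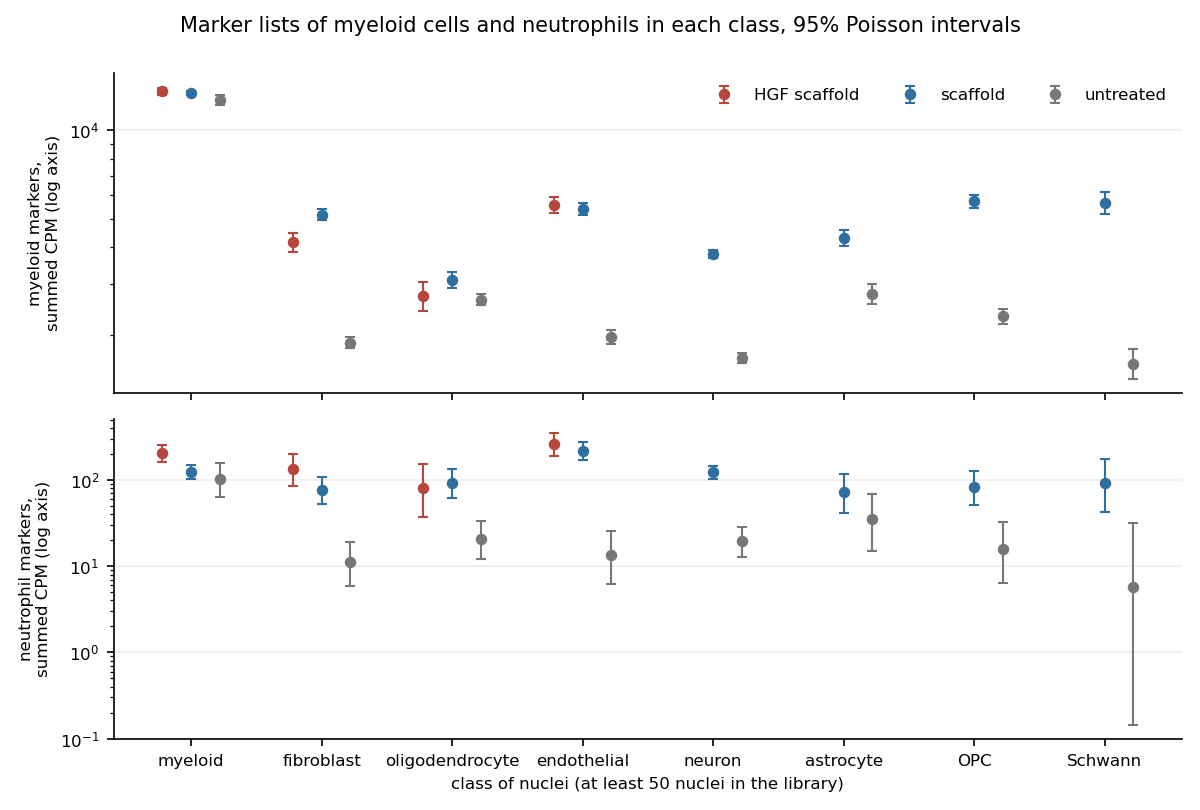
Summed level of 28 myeloid markers (top) and 10 neutrophil markers (bottom) in CPM (log axes) by class, for each library with at least 50 nuclei of that class, ordered HGF scaffold, scaffold, untreated; points are 1 library each and bars are exact 95% Poisson intervals. The myeloid class is level, at 13592.4, 13409.4 and 12713.4 CPM, while the other classes hold more of both lists with scaffold than untreated.

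Lists of related genes, chosen with earlier results of these data known, were read over all nuclei in the same way. Of the other immediate early genes, 12 of 24 measured were higher in scaffold over untreated, where 6.76% of all genes were. In that comparison 1 was lower, against 4.58% of all genes. The list median was 0.96 on the log2 scale, beside 1.01 for the members. The higher genes included Nfkbiz, an NF-kappaB cofactor (ratio 3.70, 3.17 to 4.32), Rgs2, a G protein regulator (4.33, 2.39 to 8.40), Btg2 (2.62, 2.07 to 3.35) and Ier5 (2.48, 1.89 to 3.28). Leucine zipper partners were higher for 6 of 25 and lower for 1, with Cebpb, a factor of myeloid and acute-phase genes, at 6.29 (5.395 to 7.36), and the AP-1 inhibitor Batf at 5.86 (3.88 to 9.18). MAP kinase phosphatases and other feedback genes were higher for 3 of 12 and lower for 0. Dusp2, a nuclear MAP kinase phosphatase of immune cells, had 31.8, 23.2 and 1.18 CPM in the HGF scaffold, scaffold and untreated libraries, a scaffold over untreated ratio of 19.7 (9.29 to 49.9). The Cebpb, Batf and Dusp2 ratios are over all nuclei, and myeloid nuclei were 20.9% of scaffold nuclei and 9.92% of untreated nuclei. The part of the myeloid share in them was not tested. Upstream kinases and factors were higher for 0 of 19 and lower for 1, partners of NR4A and EGR proteins for 0 of 5 either way, and heat shock genes were higher for 1 of 14 and lower for 0. Injury and regeneration genes of axons and glia were higher for 0 of 8 and lower for 3, among them the calcium channel subunit gene Cacna2d1 (0.471, 0.437 to 0.506).

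In HGF scaffold over scaffold, 1 of 24 other immediate early genes was higher, Zfp36, which encodes an RNA-binding protein that shortens the life of cytokine mRNAs, at 100.8, 43.7 and 18.0 CPM in the HGF scaffold, scaffold and untreated libraries (ratio 2.31, 1.87 to 2.84). None of them was lower. Of all measured genes in that comparison, 2.12% were higher and 5.56% were lower. The feedback list had 1 of 12 higher and 2 lower, and the zipper partners 1 of 24 higher. The upstream kinases had 1 of 18 lower, Mapk10, which encodes a neuronal JNK kinase (0.502, 0.423 to 0.592). That ratio is over all nuclei, and neurons were 3.65% of HGF scaffold nuclei and 8.95% of scaffold nuclei. The part of the neuron share in it was not tested. In HGF scaffold over untreated, 7 of 23 other immediate early genes, 4 of 12 feedback genes and 7 of 25 zipper partners were higher. Of all measured genes 8.33% were. Cebpb was at 9.51 (8.01 to 11.3). Myeloid nuclei were 33.6% of HGF scaffold nuclei, 20.9% of scaffold nuclei and 9.92% of untreated nuclei. The part of the myeloid share in the Cebpb and Zfp36 ratios was not tested. Of the injury and regeneration genes 0 of 8 were higher and 4 were lower in HGF scaffold over untreated, where 12.6% of all measured genes were lower. Neurons were 3.65% of HGF scaffold nuclei and 7.07% of untreated nuclei.

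Over the 20 sums of a class in a library with at least 50 nuclei, the genes outside the lists and the markers whose level was most like the members' mean were Rpsa, Arhgdia, Rps14, Rps12 and Clic1, with Pearson correlations of 0.957, 0.941, 0.937, 0.935 and 0.934 among 7852 candidate genes. Of these, 3 encode ribosomal proteins. Among the members themselves the correlation ran from 0.04 for Atf3 with Egr1 to 0.85 for Fos with Junb. These points share libraries and depth, so the values describe likeness alone.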

How the data were processed

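Each of the 3 libraries was 1 sample of nuclei isolated from the lesion epicenter, run on 10x Genomics 3′ gel beads and sequenced; the number of animals in a library is not given. The deposited files hold UMI counts per gene and nucleus, which the authors made in Cell Ranger, version 6.0.1 according to the submitters' processing notes. The genome build and annotation are not given in the sources used here. The counting of overlapping or near-identical genes is not stated either.

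Nuclei with at least 200 genes and at most 5% mitochondrial UMIs were kept (5320 of 5326). Scrublet called 2 nuclei (0.0376%) where 0.725% to 1.80% were expected by library, so it did not work as a doublet caller, and an alternative removed the nuclei in which 5 or more of 7 lineages each showed 3 or more markers (31, 273 and 270 in the HGF scaffold, scaffold and untreated libraries). Counts were scaled to 10000 per nucleus and log-transformed, and the 3 libraries were clustered together (2000 variable genes without the members, 30 principal components, 15 neighbours, Leiden resolution 1) with Python 3.11.15, scanpy 1.11.5, anndata 0.12.19, leidenalg 0.10.2, scikit-learn 1.9.0, numpy 2.4.6 and scipy 1.17.1; figures used matplotlib 3.10.9. A cluster was named where at least 4 markers of a type were among its 100 leading genes. That minimum, and the rule that left a mixed cluster of high UMI counts unnamed, were set after seeing the data. Values of 1 unnamed cluster are not reported here. Names are rebuilt here and may differ from the study's own.

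UMIs were summed per library and class and divided by the summed UMIs of the same nuclei (CPM). Intervals are exact Poisson intervals for a level and exact conditional binomial (Clopper-Pearson) intervals for a ratio. They cover counting error only. Ratios were set against the median ratio of all genes whose UMIs in the pair of libraries reached 20, and 2-fold from that median was the limit for a call; classes needed at least 50 nuclei in both libraries. Where a library held 0 UMIs, a floor of 3 counts per library stood in. The ratio, interval and call steps were tested on simulated Poisson counts with known folds. The clustering and naming of nuclei were not tested in this way.

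All 10 members are named. Of each other list, at most 4 genes a comparison could be named, those farthest from the median gene among genes with at least 50 UMIs. Genes like the members were the 5 with the highest correlation of log2(CPM + 10) with the members' mean among genes with at least 200 UMIs. Members and lists were chosen with earlier results of these data known. The lists were other immediate early genes (29 of 30 found), MAP kinase phosphatases and feedback genes (13 of 13), leucine zipper partners (26 of 28), upstream kinases and factors (19 of 22), NR4A and EGR partners (5 of 5), heat shock genes (15 of 15), injury and regeneration genes (14 of 14), mitochondrial transcripts (13 of 13), ribosomal protein genes and cell type markers. Alternatives covered centring, weighting, minimum counts, filters, doublets, clustering, depth and class makeup.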

Additional observations from a re-analysis of the deposited data

Results flagged for a closer look

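Fosb in HGF scaffold over scaffold ran in opposite directions between classes. It was past 2-fold higher in fibroblasts and endothelial nuclei and past 2-fold lower in the unnamed cluster led by Slc4a4 and Bnc2. On the log2 scale, relative to the median gene, the gap between the fibroblast value and the Slc4a4 and Bnc2 value was 2.53. The lower value rests on a floor of 3 counts, since that cluster held 0 Fosb UMIs in 50 HGF scaffold nuclei. The higher values rest on 12 and 13 HGF scaffold UMIs. The fibroblast value stayed past 2-fold in 3 of 10 alternative settings, down to 0.21 on the log2 scale, and the endothelial value in 7 of 11, down to 0.26. With 1 library per group the difference was not tested.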

How the results depend on the processing

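Over all nuclei the counts of members past 2-fold ran from 4 to 6 higher in scaffold over untreated and from 2 to 4 higher in HGF scaffold over untreated across 15 alternatives. Alternatives that changed only the clustering could not alter these counts. With no minimum of UMIs, HGF scaffold over scaffold had 1 higher member in place of 0, Egr1, since 10 members were then measured. Without the 3 unnamed inflammatory clusters, an alternative chosen after seeing the data, HGF scaffold over untreated had 1 lower member in place of 0, Nr4a3 (-1.06 on the log2 scale). The Jund ratio of HGF scaffold over scaffold in fibroblasts was 0.16 on the log2 scale with each library clustered alone, in place of -1.13, and the cause was not tested. No other member's call changed its direction. With class makeup held fixed, Fos in scaffold over untreated (0.99) and Klf6 in HGF scaffold over untreated (0.98) missed the limit by little. Nr4a3 in scaffold over untreated was at 0.86 with nuclei thinned to 500 UMIs. Counts within classes were less stable: higher members in scaffold over untreated ran from 1 to 7 in myeloid nuclei, 2 to 4 in fibroblasts, 0 to 5 in oligodendrocytes, 1 to 3 in endothelial nuclei, 0 to 7 in neurons (0 where thinning to 500 UMIs left 0 members measured), 0 to 1 in astrocytes, 0 to 5 in OPC and 0 to 4 in Schwann cells. Counts in HGF scaffold over scaffold moved by over 1.5 times in 10 of 13 alternatives for higher members in fibroblasts (0 to 2), 7 of 13 for lower members in fibroblasts (0 to 2), 9 of 13 for higher members in endothelial nuclei (0 to 2) and 4 of 14 for lower members in myeloid nuclei (0 to 3). No paired analysis was possible because each group is 1 library. Depth limits the HGF scaffold library most: a count of 0 there allows up to 2.07 CPM over all nuclei and 36.9 CPM in its 33 neurons, against 0.518 and 2.56 CPM in the scaffold library and 0.504 and 2.17 CPM in the untreated library.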
